A study of Homo sapiens with 6 samples.

Results

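The genes described here are the 10 enzymes HK2, GPI, PFKP, ALDOA, TPI1, GAPDH, PGK1, ENO1, PKM and LDHA, which carry glucose to lactate. They were chosen by name, as 10 of the 29889 gene rows of the deposited tables, and every one of them passed the filter on low counts. GAPDH was set apart from the others because the study also used it as the internal control of its RT-qPCR. A549 cells, an epithelial line from a human lung adenocarcinoma, were transiently transfected with pIRES-hrGFP-1a carrying CELF6 (CELF6-OE) or with the empty plasmid (Control). Both groups received the same Lipofectamine reagent and were harvested 48 h later, with 3 biological replicates in each group and 6 libraries in all. The share of cells that took up a plasmid is not given in the sources used here, so each library holds an average over transfected and untransfected cells. CELF6 is an RNA-binding protein that acts on splicing and on mRNA levels.

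Glycolysis splits glucose into pyruvate in the cytosol and yields ATP and NADH. Hexokinase (HK2) traps glucose in the cell, GPI and phosphofructokinase (PFKP) prepare it for cleavage, aldolase (ALDOA) cleaves it, and TPI1 interconverts the products. GAPDH oxidises glyceraldehyde 3-phosphate, PGK1 and pyruvate kinase (PKM) make ATP, ENO1 forms phosphoenolpyruvate, and LDHA turns pyruvate into lactate while restoring NAD+. Tumour cells often run the pathway at a high rate even with oxygen present, and many of its genes are known targets of the hypoxia-inducible factors (HIF). GAPDH is widely used as a reference gene because it is abundant in almost every cell, and a reference gene is useful only where its level is the same in the groups compared.

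The GAPDH primers of the study are shown because they define the stretch of mRNA on which that normalisation rests.
GAPDH forward: ggtcggagtcaacggATTTG
GAPDH reverse: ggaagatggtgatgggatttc
Capitals mark the 5 bases of the forward primer that lie in exon 3 of the canonical transcript, at chr12:6536494-6536498 (GRCh38, plus strand). The 15 bases in lower case lie in exon 2, at chr12:6534847-6534861, so the 20 base primer spans a splice junction. The reverse primer, of 21 bases, anneals within exon 4, at chr12:6536766-6536786. The product measured 218 bases on the canonical transcript of 9 exons, and 7 of the 11 GAPDH transcripts in GENCODE v44 held both primers. No transcript of another gene held both, whereas the genome held 11 perfect primer matches in processed GAPDH pseudogenes, which lack introns. None of the genomic matches formed a facing pair close enough for a product.

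Between 33748328 and 35413404 fragments per library were counted on genes in CELF6-OE, against 36422617 to 37920700 in Control. The CELF6 row of replicates 1 to 3 held 18646, 20789 and 11571 counts in CELF6-OE and 0 counts in every Control library, as the labels say. Mitochondrially encoded genes took 8.91% to 10.1% of the counts in CELF6-OE and 8.69% to 9.19% in Control. The epithelial markers KRT7, KRT8, KRT18, KRT19, EPCAM, CDH1 and CLDN4 were present in all libraries, with a summed level of 10510 to 12190 CPM in CELF6-OE and 13070 to 14780 CPM in Control. Of these 7 markers, 5 were called lower in CELF6-OE (CDH1, CLDN4, KRT8, KRT18 and KRT19) in the edgeR test described below. That test called 11.5% of all genes tested lower and 6.47% higher. Markers of blood, endothelial and stromal cells, 10 in the list, summed to 8.25 to 10.98 CPM in CELF6-OE and 8.86 to 10.3 CPM in Control, and CD3E had no row in the tables. Of these, 3 passed the filter and PECAM1, at 3 to 17 counts per library, was called lower. The part of these differences in the results on glycolysis was not tested.

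The 10 enzymes took 2.99%, 2.81% and 2.95% of all counts in the CELF6-OE libraries, in the order of the replicate number, and 3.07%, 3.25% and 3.35% in the Control libraries. Values are given in this order throughout. Every CELF6-OE library lay below every Control library. GAPDH alone took 1.06%, 0.978% and 1.02% of all counts in CELF6-OE against 1.07%, 1.13% and 1.19% in Control, so its groups did not overlap on this scale either. Within the set of enzymes its portion hardly varied, between 34.6% and 35.5% of the members' counts over the 6 libraries. In bulk RNA, fewer cells that make a transcript and less transcript per cell cannot be told apart.

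Levels are compared between genes by FPKM, which divides fragments by transcript length and by library depth. In Control, GAPDH was the most abundant of the enzymes at 4880.4 ± 255 FPKM (SD, n = 3), followed by ENO1 at 2199 ± 122 and PKM at 1614 ± 79.8. LDHA at 969 ± 41.3, TPI1 at 868 ± 41.7 and ALDOA at 750.5 ± 51.9 came next. PGK1 at 279 ± 4.38, GPI at 207 ± 13.2 and PFKP at 179 ± 9.95 were lower again, and HK2 stood far below the rest at 1.22 ± 0.12 FPKM. No pair of neighbours in this order overlapped between libraries in Control. In CELF6-OE the order was the same except that GPI, at 229 ± 7.76 FPKM, stood above PGK1, at 217 ± 13.2, and the ranges of these neighbours overlapped.

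**Figure D1:**
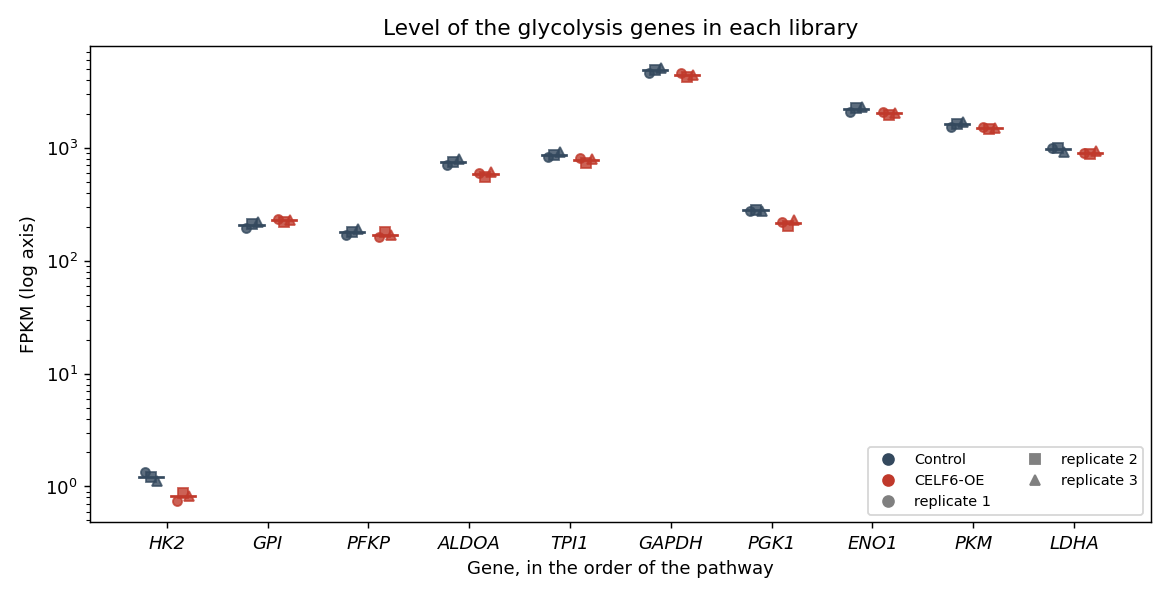
FPKM of each glycolysis gene (log axis) in the 3 Control and 3 CELF6-OE libraries, in the order of the pathway. Points are libraries, with the replicate number as the shape, and horizontal bars are group means. GAPDH lies between 4203 and 5129.9 FPKM in every library and HK2 between 0.75 and 1.35, while the shift between groups is small beside the distance between genes.

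To ask whether the enzymes differed between CELF6-OE and Control, all 15847 genes kept by the filter were tested on their counts with edgeR's quasi-likelihood test after TMM scaling. The enzymes HK2, ALDOA and PGK1 were lower in CELF6-OE at a Benjamini-Hochberg adjusted p under 0.05, and none was higher. That is 3 of 10 members, where 11.5% of all genes tested were called lower and 6.47% higher. Under the stricter rule of the study's methods, p under 0.01 with a fold change of at least 1.5, HK2 was the 1 member called, and 5.91% of all genes were called lower. The log2 fold change was below 0 for 9 of the 10 members, with a median of -0.17 beside 0.011 over all genes tested. By CPM, 5 of the 10 (HK2, ALDOA, TPI1, PGK1 and LDHA) had every CELF6-OE library below every Control library, against 20.0% of all genes. None had every CELF6-OE library above, against 17.9% of all genes.

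HK2 (ENSG00000159399, chr2:74834127-74893359 on GRCh38), the inducible hexokinase, had 0.75, 0.88 and 0.82 FPKM in CELF6-OE against 1.35, 1.21 and 1.11 FPKM in Control. These values rest on 162 to 194 and 261 to 304 counts per library, and the groups did not overlap. HK2 fell by 34.6%, with a log2 fold change of -0.61 ± 0.11 (SE) and an adjusted p of 0.00397 in edgeR's quasi-likelihood test (Benjamini-Hochberg). It was the largest change in size among the members. HK2 was not the most abundant hexokinase in these libraries. In Control, HK1 stood at 28.0 ± 0.77 FPKM and HKDC1 at 14.6 ± 0.17 FPKM (SD). Their log2 fold changes were -0.21 for HK1, which was called lower, and 0.18 for HKDC1, which did not pass. The call was lost with limma on log2(FPKM + 1), with a difference of -0.29 on that scale and an adjusted p of 0.0860, and on log2(FPKM + 0.1), with a difference of -0.53 and an adjusted p of 0.0719.

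ALDOA (ENSG00000149925, chr16:30064164-30070457), the main aldolase of most tissues, had 596, 551 and 613 FPKM in CELF6-OE and 697, 754 and 800.4 FPKM in Control. No CELF6-OE library reached the lowest Control library, and the level fell by 23.5% (log2 fold change -0.39 ± 0.083, adjusted p = 0.00895, quasi-likelihood test in edgeR). The adjusted p was 0.0549 without CELF6-OE replicate 2, which held the lowest ALDOA level of its group, and 0.0514 without Control replicate 2. PGK1 (ENSG00000102144, chrX:77910739-78129295), a kinase that makes ATP, had 219, 203 and 229 FPKM in CELF6-OE against 277, 284 and 276 FPKM in Control. Its Control libraries were close together and stood clear of all CELF6-OE libraries. PGK1 fell by 23.9%, with a log2 fold change of -0.39 ± 0.069 and an adjusted p of 0.00268 in the same edgeR fit, and it was called in all 22 alternatives tried.

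GAPDH (ENSG00000111640, chr12:6534512-6538374) had 4552, 4203 and 4384 FPKM in CELF6-OE against 4621, 4891 and 5129.9 FPKM in Control. By FPKM the groups did not overlap, although CELF6-OE replicate 1 and Control replicate 1 differed by little, and a two-sided exact permutation test gave p = 0.1, the smallest that 3 libraries against 3 allow. By TMM-scaled CPM the groups overlapped, with 10556, 9565 and 10076 CPM against 10511, 11533 and 12341 CPM. The fitted log2 fold change was -0.19 ± 0.079, which corresponds to a level 12.2% lower, with a 95% interval from -0.36 to -0.013. The unadjusted p was 0.0376 and the adjusted p was 0.127 in the edgeR quasi-likelihood fit over all genes, so GAPDH did not pass the threshold. Among all genes tested, 25.3% had a lower log2 fold change than GAPDH and 48.8% had a change of larger size. Without Control replicate 1, which held the lowest GAPDH level of its group, the log2 fold change was -0.25 and the adjusted p was 0.0143.

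TPI1, ENO1 and PKM had values close to those of GAPDH. TPI1 (ENSG00000111669, chr12:6867119-6870948) had 807, 728 and 793 FPKM in CELF6-OE against 825, 870.0 and 909 FPKM in Control, and a log2 fold change of -0.19 ± 0.077 (adjusted p = 0.106 in edgeR). ENO1 (ENSG00000074800, chr1:8861000-8879190, minus strand) had 2069.9, 1947 and 2044 FPKM against 2064, 2234 and 2299.9 FPKM, with the groups overlapping, and a log2 fold change of -0.15 ± 0.077 (adjusted p = 0.188 in edgeR). PKM (ENSG00000067225, chr15:72199029-72231819, minus strand) had 1532, 1469 and 1495 FPKM against 1525, 1637 and 1680.0 FPKM, also overlapping, and a log2 fold change of -0.14 ± 0.074 (adjusted p = 0.224 in edgeR). None of these enzymes passed the test with all libraries, and in each the Control replicate with the lowest level was replicate 1. Without that library TPI1, ENO1 and PKM passed together with GAPDH, at adjusted p of 0.0147, 0.0208 and 0.0296, and 7 of the 10 members were called lower in edgeR's quasi-likelihood test. The calls over all genes rose as well without it, to 4276 in all, from 1820 lower and 1025 higher with all libraries. How many of the 4276 were lower is not given here, so the 7 of 10 has no share of lower calls beside it.

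LDHA (ENSG00000134333, chr11:18394560-18408425) had 906, 873 and 932 FPKM in CELF6-OE and 991, 995 and 922 FPKM in Control, with a log2 fold change of -0.13 ± 0.065 (adjusted p = 0.186, edgeR). Its lowest Control library was replicate 3, unlike that of GAPDH. PFKP (ENSG00000067057, chr10:3066333-3137718), the platelet form of phosphofructokinase, had 163, 179 and 168 FPKM against 169, 178 and 189 FPKM and a log2 fold change of -0.11 ± 0.073 (adjusted p = 0.334, edgeR). GPI (ENSG00000105220, chr19:34359480-34402413), which interconverts the phosphates of glucose and fructose, was the 1 member with a positive value. It had 236, 220.5 and 230.1 FPKM in CELF6-OE against 193, 209 and 219 FPKM in Control, so the groups did not overlap by FPKM, although they did by CPM. The log2 fold change of GPI was 0.11 ± 0.076 (adjusted p = 0.344, edgeR), which did not pass.

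GAPDH followed the median of the other enzymes from library to library, within groups as well as between them. On the scale of log2 CPM minus the Control mean, GAPDH stood at -0.12, 0.012 and 0.11 in the Control libraries, and the median of the other 9 enzymes stood at -0.12, 0.024 and 0.10. In the CELF6-OE libraries GAPDH stood at -0.12, -0.26 and -0.18, with the median of the others at -0.12, -0.22 and -0.14. The gap between GAPDH and that median was never larger than 0.044 in size in any library. The Control libraries of GAPDH were thus farther apart than GAPDH and the median of the others were in any library, although single members lay farther from GAPDH, as the ratios given next show. Control replicate 1 was the lowest Control library for 8 of the 10 enzymes, and CELF6-OE replicate 2 was the lowest CELF6-OE library for 8 of the 10.

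**Figure D2:**
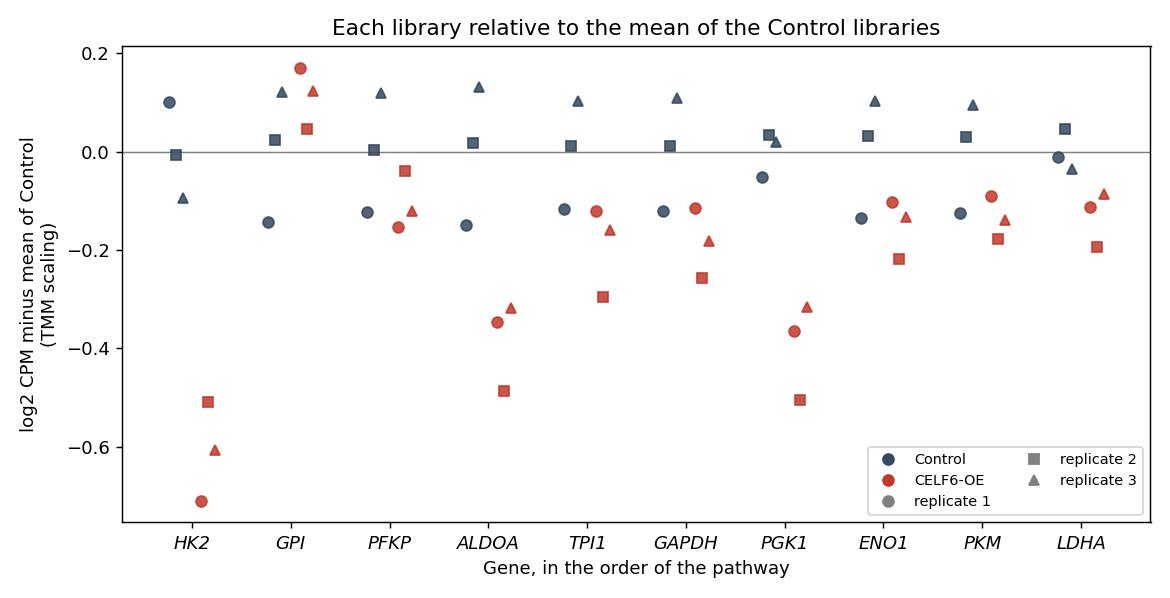
Log2 CPM (TMM scaling) of each glycolysis gene minus the mean of its Control libraries, with 1 point per library and the replicate number as the shape. For GAPDH, TPI1, ENO1 and PKM, CELF6-OE replicate 2 is at the bottom (-0.26 for GAPDH) and Control replicate 3 at the top (0.11 for GAPDH). The CELF6-OE libraries of HK2, ALDOA and PGK1 lie well below their Control libraries and those of GPI lie above 0.

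A ratio of counts within a library does not depend on how libraries are scaled, so GAPDH was set against each other member in turn. The log2 ratio of GAPDH to TPI1 was 2.53 ± 0.031 (SD, n = 3) in CELF6-OE and 2.52 ± 0.0060 in Control, a difference of 0.0066 ± 0.018 (SE) with overlapping groups. For ENO1 the ratio differed by -0.034 ± 0.015, for LDHA by -0.055 ± 0.081 and for PFKP by -0.080 ± 0.075, and the groups overlapped for each of them. The ratio to PKM was lower in every CELF6-OE library than in any Control library, by 0.050 on the log2 scale, so this pair was separated by a small amount. The SE was smallest for ENO1 and TPI1 among the overlapping pairs and larger for LDHA and PFKP.

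The ratio differed more for the other members. Against GPI it was 3.31, 3.30 and 3.29 in CELF6-OE, compared with 3.62, 3.59 and 3.59 in Control, a difference of -0.30 ± 0.013 (SE). The replicates of each group differed by far less than this. Against ALDOA the ratio was higher in CELF6-OE by 0.20 ± 0.034, against PGK1 by 0.21 ± 0.061 and against HK2 by 0.43 ± 0.16, without overlap in any of these pairs. For the 5 ratios without overlap (HK2, GPI, ALDOA, PGK1 and PKM) the two-sided exact permutation test gave p = 0.1, the smallest it can give here, and 0.18 after Benjamini-Hochberg adjustment over the 9 ratios. That test cannot reach 0.05 with 3 libraries against 3, so the pairs are described here by their values, and a fit across all genes relative to GAPDH follows.

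The whole table was then fitted again with GAPDH as the scale in place of TMM, an alternative chosen after the data had been seen, in which GAPDH itself cannot be tested. GPI was now called higher, with a log2 fold change of 0.30 (95% interval 0.20 to 0.39) and an adjusted p of 0.00340 in edgeR's quasi-likelihood test. ALDOA at -0.20 (-0.29 to -0.10, adjusted p = 0.0159 in edgeR) and PGK1 at -0.21 (-0.34 to -0.080, adjusted p = 0.0331 in edgeR) stayed lower. HK2 at -0.43 (-0.78 to -0.080) had an adjusted p of 0.0726 in edgeR and was no longer called. Relative to GAPDH, TPI1 differed by -0.0064 (-0.097 to 0.084), ENO1 by 0.034 (-0.047 to 0.12), PKM by 0.050 (-0.030 to 0.13), LDHA by 0.051 (-0.095 to 0.20) and PFKP by 0.084 (-0.067 to 0.24). This scale moves every gene up by about the size of the GAPDH change, and the median of all genes from 0.011 to 0.19, so the positive sign of the 4 last of these follows from the shift. Over all genes 5.09% were called lower and 17.2% higher on the GAPDH scale, so that 22.8% of the calls were lower, against 64.0% with TMM, and this split is set by the same shift.

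**Figure D3:**
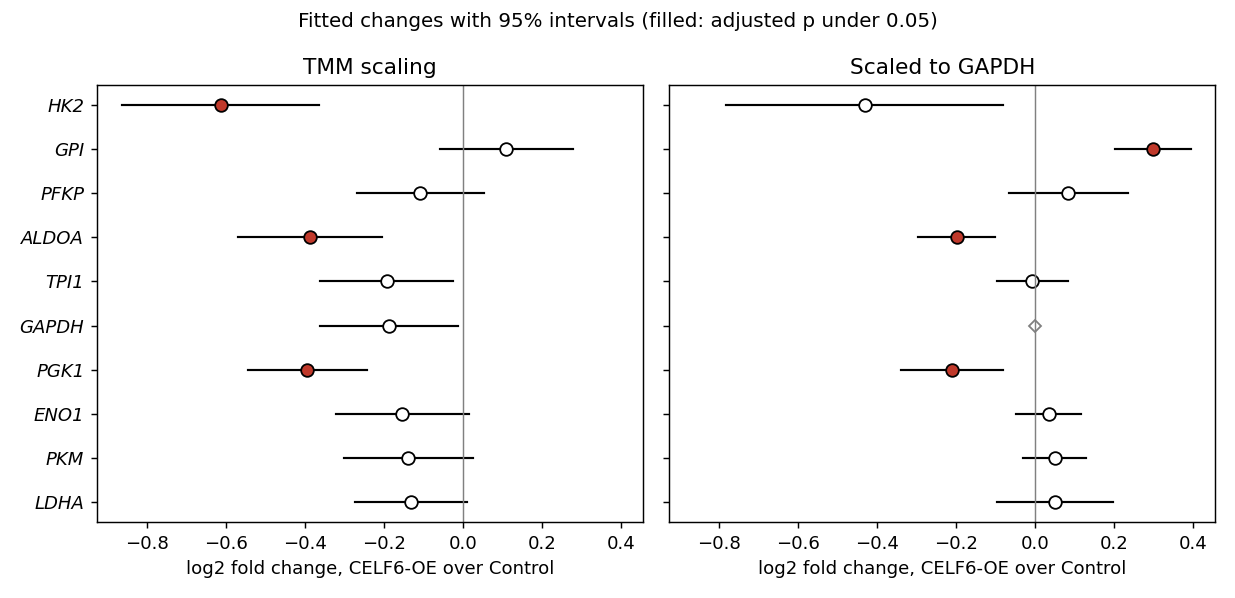
Fitted log2 fold change of CELF6-OE over Control with its 95% interval for each glycolysis gene, with TMM scaling on the left and with GAPDH as the scale on the right. Filled points have an adjusted p under 0.05, and the open diamond marks GAPDH, which is 0 by construction on the right. Called genes are HK2, ALDOA and PGK1 on the left and GPI, ALDOA and PGK1 on the right.

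The likeness of each gene to GAPDH was measured as the root mean square difference of centred log2 CPM over the 6 libraries, among 1717 genes with a mean of at least 100 CPM. The 5 closest genes were NDUFB11 (0.014), RPL28 (0.016), TPI1 (0.019), COX6B1 (0.021) and ENO1 (0.023). NDUFB11 and COX6B1 encode subunits of respiratory complexes, and RPL28 encodes a ribosomal protein. PKM was in place 19, PFKP in place 347, LDHA in place 348, ALDOA in place 523, PGK1 in place 668 and GPI in place 911. HK2 was under the minimum level and was not ranked. The enzymes thus ran from places among the closest genes to places beyond the middle of the order.

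The upstream sequence of the members that fell is shown because ACGTG is a form of the core that HIF binds. LDHA is added as a member with several ACGTG matches that was not called. Each is the 250 bases before a RefSeq start site on GRCh38.p14, 5′ to 3′ on the plus strand, with capitals where ACGTG stands on either strand.
PGK1, chrX:78103998-78104247: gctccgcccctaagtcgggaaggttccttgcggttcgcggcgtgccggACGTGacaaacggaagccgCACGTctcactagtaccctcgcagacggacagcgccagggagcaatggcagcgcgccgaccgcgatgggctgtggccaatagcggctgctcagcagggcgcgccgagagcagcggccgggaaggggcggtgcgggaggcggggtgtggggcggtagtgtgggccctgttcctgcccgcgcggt
ALDOA, chr16:30065510-30065759: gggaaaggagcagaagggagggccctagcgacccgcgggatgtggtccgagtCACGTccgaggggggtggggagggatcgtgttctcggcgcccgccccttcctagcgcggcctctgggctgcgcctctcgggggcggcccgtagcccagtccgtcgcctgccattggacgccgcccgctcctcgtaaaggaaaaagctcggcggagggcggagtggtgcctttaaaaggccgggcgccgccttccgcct
HK2, chr2:74833877-74834126: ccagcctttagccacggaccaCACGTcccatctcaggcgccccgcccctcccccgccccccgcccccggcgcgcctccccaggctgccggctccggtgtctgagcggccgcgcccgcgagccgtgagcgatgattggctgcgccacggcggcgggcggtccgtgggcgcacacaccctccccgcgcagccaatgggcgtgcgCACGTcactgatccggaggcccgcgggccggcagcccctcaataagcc
LDHA, chr11:18394313-18394562: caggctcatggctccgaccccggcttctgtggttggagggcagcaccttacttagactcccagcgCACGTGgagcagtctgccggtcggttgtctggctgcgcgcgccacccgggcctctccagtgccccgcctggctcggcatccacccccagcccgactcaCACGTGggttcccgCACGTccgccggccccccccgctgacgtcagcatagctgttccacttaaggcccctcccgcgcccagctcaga
Searched on both strands, ACGTG was in 11 of the 18 windows that RefSeq gives for the members, and in 18.5% of all 35116 windows of the same length. The E-box CACGTG, which contains ACGTG on each strand, was in 4 of the 18 and in 6.34% of all. Of the 7 members with a window within 50 bases of the canonical start, HK2, ALDOA, PGK1 and LDHA held ACGTG and TPI1, ENO1 and PKM did not. GPI, PFKP and GAPDH had no window that close to the canonical start. In windows at any distance 8 of the 10 members held ACGTG. Among these were TPI1, GPI, PFKP and GAPDH, which were not called with TMM scaling. ENO1 and PKM held no ACGTG. The 18.5% above is a share of windows, and a gene can have several windows. Shares of all genes are not given here, so these counts of members have none beside them. A link between the motif and the changes was not tested. A match describes these letters only, and binding was not measured. No motif but ACGTG and CACGTG was searched, so a window without them may hold another form of the core.

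Other isoforms and steps of glycolysis were set beside the members from a list of 22 genes, of which 11 passed the filter on low counts. Of these 11, 6 were called lower and 0 higher in edgeR's quasi-likelihood test, with a median log2 fold change of -0.21, while 11.5% of all genes tested were lower and 6.47% higher. On the GAPDH scale 3 were lower and 1 was higher, beside 5.09% of all genes lower and 17.2% higher on that scale. ALDOC, the brain-type aldolase, had 143, 136 and 214 counts in CELF6-OE against 382, 435 and 421 in Control and fell with a log2 fold change of -1.25 ± 0.17 (adjusted p = 0.000518, edgeR). PGAM1, the mutase that stands between PGK1 and ENO1, had 966, 892 and 999 CPM against 1207, 1281 and 1309 CPM and fell with a log2 fold change of -0.41 ± 0.068 (adjusted p = 0.00196, edgeR). PFKL, the liver form of phosphofructokinase, fell by 0.45 on the log2 scale, ENO3 by 0.48, ADPGK by 0.34 and HK1 by 0.21. ALDOC, PGAM1 and PFKL were called in all 22 alternatives tried, ADPGK and ENO3 in 21 and HK1 in 14. HKDC1 (log2 fold change 0.18), LDHB (0.047), BPGM (-0.012), PFKM (-0.10) and ENO2 (-0.17) did not pass.

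Sugar and lactate transport and the control of fructose 2,6-bisphosphate, the activator of phosphofructokinase, made up a list of 17 genes with 14 kept, of which 4 were called lower and 2 higher, with a median log2 fold change of -0.22. Over all genes tested 11.5% were lower and 6.47% higher. Without Control replicate 1 the list had 7 lower and 2 higher. That fit called 4276 genes in all, where the fit with all libraries called 1820 lower and 1025 higher. The split of the 4276 by direction is not given here, so these list counts have no such share beside them. SLC2A1, the main glucose carrier of many tumour cells, had 99.8, 107 and 113 CPM in CELF6-OE against 134, 150 and 158 CPM in Control, a log2 fold change of -0.47 ± 0.075 (adjusted p = 0.00157, edgeR). SLC16A3, which exports lactate, had 186, 177 and 211 CPM against 282, 323 and 358 CPM, a log2 fold change of -0.75 ± 0.093 (adjusted p = 0.000304, edgeR). The glucose carrier SLC2A12, with 38 to 55 counts in CELF6-OE and 127 to 149 in Control, fell by 64.7%. The bifunctional kinases of fructose 6-phosphate moved in opposite directions. PFKFB4 fell by 0.88 on the log2 scale, and PFKFB3 rose by 0.43, from 198, 200.2 and 209 CPM in Control to 268, 295 and 258 CPM in CELF6-OE. SLC16A7 rose by 0.95 on 20 to 68 counts per library. The calls of SLC2A1, SLC16A3, SLC2A12, PFKFB3 and PFKFB4 were made in all 22 alternatives tried, and that of SLC16A7 in 17.

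Pathways that branch from or follow glycolysis were described in the same way, beside 11.5% of all genes tested called lower and 6.47% called higher. Of 15 genes for the entry of pyruvate into mitochondria, 1 was called, PDK4, a kinase that inhibits pyruvate dehydrogenase, which fell by 0.75 on the log2 scale and was called in 19 of the 22 alternatives, and the median of the list was -0.025. Of 11 genes kept for the pentose phosphate pathway, 3 were called lower and 0 higher, and the median was -0.051. RBKS fell by 0.64, H6PD by 0.60 and PGLS by 0.39 on the log2 scale. PGD, TKT and TALDO1, further enzymes of that pathway, had log2 fold changes from -0.096 to 0.032 and none passed. Of 9 genes for gluconeogenesis 3 were kept, with a median of -0.14 and 0 called in edgeR, while G6PC3 had an unadjusted p of 0.0133.

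Other genes of the HIF response were given by a list of 21, all kept, which holds the factors HIF1A, EPAS1 and ARNT beside their targets. Of these 10 were called lower and 0 higher, beside 11.5% and 6.47% of all genes tested, with a median log2 fold change of -0.30. The number lower was 6 without CELF6-OE replicate 1 or without Control replicate 2, 7 without CELF6-OE replicate 2, and 4 on log2 FPKM. It was 12 without Control replicate 3, and 11 with 1 higher without Control replicate 1. The shares of all genes called lower in these fits are not given here. Scaled to GAPDH, 3 were lower and 1, the factor EPAS1, was higher. On the GAPDH scale 5.09% of all genes were called lower and 17.2% higher. CA9, a carbonic anhydrase on the cell surface, had 21.9, 16.4 and 32.9 CPM in CELF6-OE against 85.1, 92.2 and 86.4 CPM in Control and fell by 1.89 on the log2 scale (adjusted p = 6.28e-05, edgeR). ANGPTL4, a regulator of lipoprotein lipase, fell by 0.99, the carbonic anhydrase CA12 by 0.59 and the mitophagy receptor BNIP3 by 0.45. CA9, ANGPTL4 and CA12 were called in all 22 alternatives and BNIP3 in 21. The factors themselves did not pass with TMM scaling, with log2 fold changes of 0.11 for EPAS1 and -0.0060 for ARNT, and VEGFA stood at -0.047. EPAS1 had 229.2 to 233.9 CPM in CELF6-OE and 211.3 to 215.5 CPM in Control, without overlap. On the GAPDH scale, which moves all genes up, EPAS1 was called higher (0.30, adjusted p = 0.0227 in edgeR). HIF1A had 145, 160 and 144 CPM in CELF6-OE and widely spread Control values of 168, 112 and 81.8 CPM, so its groups overlapped.

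**Figure D4:**
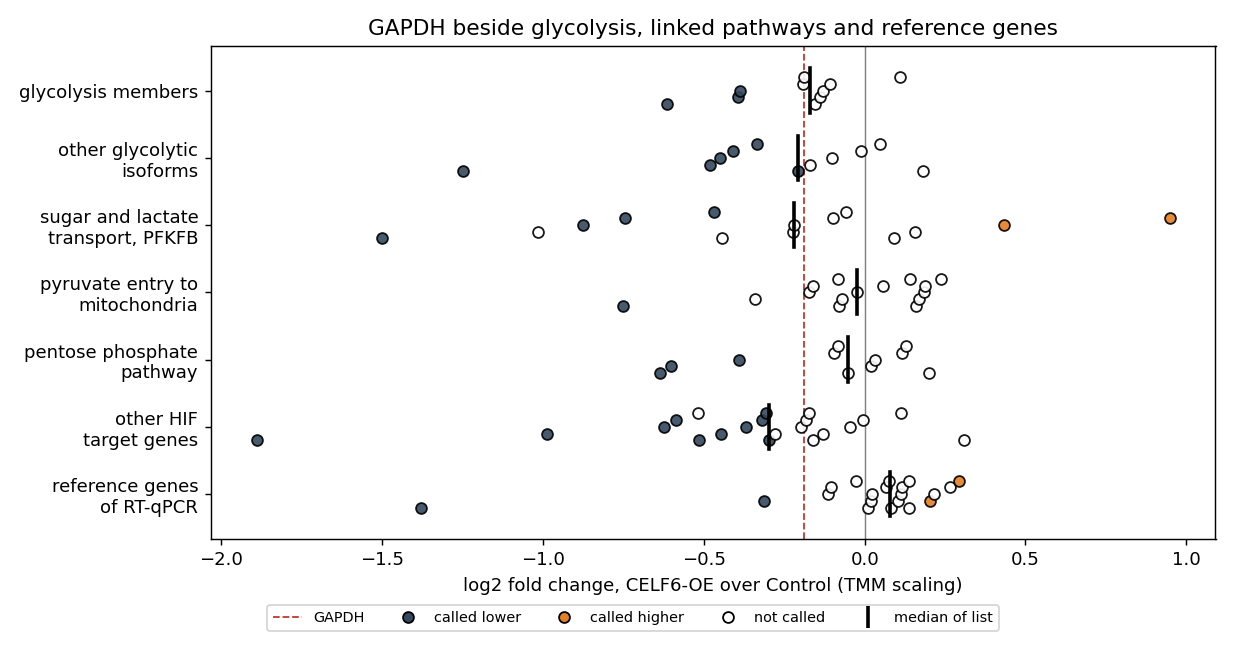
Log2 fold change (CELF6-OE over Control, TMM scaling) of every kept gene in the glycolysis set and 6 further lists, with 1 point per gene, filled where the adjusted p was under 0.05. Thick vertical bars are list medians and the dashed line is GAPDH at -0.19. The reference genes of RT-qPCR have a median of 0.078, to the right of GAPDH, and the HIF genes one of -0.30, to its left.

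Since GAPDH served as a reference gene, 20 other genes in use as references were placed beside it. In the TMM fit 2 were called lower, B2M and GUSB, and 2 higher, YWHAZ and HSP90AB1, with a median log2 fold change of 0.078. These counts of 2 in 20 were near the shares of all genes, 11.5% lower and 6.47% higher, and 1 gene in all was called when CELF6-OE replicate 1 or Control replicate 2 was left out, and 2 without CELF6-OE replicate 2. B2M, the light chain of MHC class I, had 593, 615 and 851 CPM in CELF6-OE against 1920.2, 1778 and 1655 CPM in Control, and fell by 1.38 on the log2 scale. GUSB fell by 0.31, YWHAZ rose by 0.29 and HSP90AB1 by 0.20, and these were called in 16, 20 and 16 of the 22 alternatives, against 22 for B2M. For 14 of the 20 the change was smaller in size than that of GAPDH, and 2 of the 20, B2M and GUSB, lay below it. ACTB stood at 0.082 ± 0.070, PPIA at 0.0093 ± 0.066, RPL13A at 0.019 ± 0.076 and POLR2A at 0.022 ± 0.078 (log2 fold change with SE). TUBB, TUBA1B, HPRT1, TBP, RPLP0, SDHA, TFRC, IPO8 and EEF1A1 ranged from -0.12 for SDHA to 0.27 for IPO8 and did not pass.

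With GAPDH as the scale, 10 of the 20 reference genes were called, 1 lower (B2M, -1.20) and 9 higher, beside the shift of all genes on this scale. Of all genes, 5.09% were called lower and 17.2% higher on it. RPLP0 was higher by 0.40 (95% interval 0.31 to 0.50), ACTB by 0.27 (0.15 to 0.38) and PPIA by 0.19 (0.091 to 0.30) on the log2 scale relative to GAPDH, with adjusted p of 0.00103, 0.0101 and 0.0203 in edgeR. These 3 genes were not called with TMM scaling. In FPKM, ACTB had 3106, 3202 and 2982 in CELF6-OE against 2788, 2857 and 2948 in Control, so ACTB and GAPDH differed in direction and the groups of neither overlapped. By TMM-scaled CPM the groups of both genes overlapped. Which of the scales is nearer to the amount of RNA per cell was not measured, since no spike-in of known amount is described in the sources used here.

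Near-identical copies and overlapping genes could move these values. Only uniquely placed reads were kept, so reads that fit a member and a copy equally well are not in the table and their number is not known. The counts below are those of the rows of the copies and overlapping genes themselves. The table held 27 rows of processed pseudogenes of the members, 15 of them of GAPDH, and together these rows took 101 to 139 counts per library, or 0.00977% to 0.0113% of the members' counts. The strand setting of the counting is not given, so GAPDH reads and those of the antisense lncRNA ENSG00000269968, which shares 422 exonic bases with it, cannot be told apart. That row held 998 to 1243 counts, 0.222% to 0.338% of the GAPDH count. SPSB2, which overlaps TPI1 on the opposite strand, held 1.17% to 1.49% of the TPI1 count.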

How the data were processed

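Poly(A) RNA of 3 CELF6-OE and 3 Control cultures of A549 cells was sequenced with a stranded kit. The authors trimmed the reads, aligned them to GRCh38 with TopHat2, kept uniquely placed reads, and deposited whole-number read counts per gene without normalization. The second deposited table holds FPKM values, which the authors computed from the same reads and rounded. The tool and strand setting used for counting, and the release of the gene annotation, are not given in the sources used here.

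Genes were matched by symbol and Ensembl identifier, and groups and replicate numbers were taken from the sample labels. The 10 members and all lists were chosen with earlier results of these data known. With edgeR 4.0.16 under R 4.3.3, counts were scaled by TMM, filtered with filterByExpr (minimum count 10), which kept 15847 of 29889 genes, and tested with glmQLFit and glmQLFTest. P-values were adjusted by Benjamini-Hochberg over all genes kept and called under 0.05, without adjustment over a list. The SE is the log2 fold change divided by the root of F, and intervals are at 95%. The biological coefficient of variation was 8.62%. A second call rule, named the study's threshold here, was that of its methods. The study's results text instead gives an FDR under 0.05 with the same fold change. Counts under the second rule come from the fit used here and differ from the published counts. Levels in CPM use TMM scaling, except the summed marker levels, which use the total count of the library alone. Log2 CPM uses a prior count of 2. FPKM means and ratios within libraries were compared with two-sided exact permutation tests.

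All members were named. Of each other list every called gene was named where there were 8 or fewer, otherwise the 4 with the smallest p, and of the reference list also genes that were not called. Some genes of the lists enter the counts but are not reported here by name. Genes of other lists that did not pass were named after their values were seen. The labels and methods call the replicates biological and say no more of their origin, so p-values measure the spread between these libraries. The depth, 33748328 to 37920700 counts per library, gives every member but HK2 at least 22292 counts, so that the spread between libraries limits the precision. No pair of libraries was a duplicate.

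Alternatives were other scalings, filters and tests (DESeq2 1.42.0, limma 3.58.1), removal of CELF6 or mitochondrial counts, log2 FPKM, the replicate number as a block, each library left out, and, added later, scaling to GAPDH. The fit was tested on simulated data with known changes. Gene positions are from GENCODE v44 (all 10 members matched) and upstream windows from RefSeq. Primers were placed by exact match.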

Additional observations from a re-analysis of the deposited data

How the results depend on the processing

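GAPDH kept a negative log2 fold change in all 21 alternatives in which it could be tested, with adjusted p from 0.0142 to 0.342. It passed 0.05 without the filter on low counts (-0.19, adjusted p = 0.0142 in edgeR) and without Control replicate 1. Leaving out each library in turn gave -0.25 to -0.13. HK2, ALDOA and PGK1 kept their direction throughout. The number of members called was 5 without the filter, where the fit had infinite prior degrees of freedom, and 1 under the study's threshold. The share of all genes called lower without the filter, or with a library left out, is not given here. Leaving out a library gave 2 to 7 members, 1 to 6 reference genes and 1319 to 4276 genes in all. The 7 members and the 4276 genes came without Control replicate 1. Over all genes 2845 were called, against 1152 under the study's threshold, 1522 on log2(FPKM + 1) and 1502 on log2(FPKM + 0.1). The reference genes called were 4, against 1 under the study's threshold and 10 when scaled to GAPDH, where PFKP (0.084), ENO1 (0.034), PKM (0.050) and LDHA (0.051) had positive values because that scale moves all genes up alike. Among all calls, lower ones made up 54.1% with library size only and 57.9% with the upper quartile, against 64.0% with TMM. Over libraries left out, the log2 ratio of GAPDH to TPI1 differed by -0.0094 to 0.022 and that to LDHA by -0.11 to 0.018, so these changed sign. With the replicate block 2290 genes and 3 members were called, and GAPDH stood at -0.19 ± 0.11 (adjusted p = 0.273). Same-numbered libraries deviated with correlations of -0.011, -0.021 and -0.072, so no shared deviation was seen between them. Whether they were paired by origin is not given. Where 1 library was left out the cause of a changed count was not tested. Depth limits HK2 most, at 162 to 304 counts per library.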
